A study of Homo sapiens with 9 samples.

Results

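The expression of 48 ribosome biogenesis factors was examined in MDA-MB-231 cells, an established human triple-negative breast cancer line, after the glucose analogue 2-deoxy-D-glucose (2-DG). The genes were taken by name from a fixed list of RNA polymerase I components, small nucleolar ribonucleoprotein (snoRNP) proteins, processome components and assembly factors. The list was chosen with earlier results of these data known. All 48 were found among the 61552 genes listed, and all 48 were among the 16572 genes that passed the filter on low values and were tested. They lie on 18 chromosomes.

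Ribosomes are built in the nucleolus, where RNA polymerase I transcribes the long precursor of the 18S, 5.8S and 28S rRNAs. Box C/D and box H/ACA snoRNPs methylate and pseudouridylate that precursor, the small subunit processome cleaves it toward the 40S subunit, and a further set of helicases, GTPases and chaperones matures the 60S subunit. The process consumes a large part of the energy of a growing cell, and the oncoprotein MYC is a known activator of many of its genes.

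The libraries came from wild-type MDA-MB-231 cells grown in serum-supplemented DMEM and exposed for 24 h to 0 mM (control, phosphate-buffered saline), 10 mM or 20 mM 2-DG, which enters cells like glucose and blocks glycolysis, with 3 libraries in each group. The study used them to find genes that respond when lactate production is lowered. The lactate-treated cells of the study are not analysed here, and all groups are of a single cell line. Values are FPKM, the reads on a gene divided by gene length and library size, so that levels of different genes can be set side by side.

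Library totals recovered from the FPKM values lay between 30974968 and 40843638 reads, and each member held at least 21 reads (NOP2) in every library, with at least 265 for the other 47. The line's mesenchymal markers VIM and CD44 were present at 243 to 313 FPKM and at 52.9 to 74.1 FPKM, while ESR1, PGR and the leukocyte markers PTPRC and CD3E stayed at or below 0.0327 FPKM. The endothelial marker PECAM1 fell by 0.51 on the log2 scale at 20 mM, from 1.72 to 0.914 FPKM, and the epithelial marker EPCAM and the fibroblast marker COL1A1 lay between 2.61 and 4.51 FPKM and between 0.891 and 1.33 FPKM. CD44 (log2 fold change -0.30), ERBB2 (-0.54) and CDH1 (-0.35) also fell at 20 mM. For CDH1 the mean went from 0.365 to 0.0686 FPKM, lower by 81.2%, which log2(FPKM + 1) understates at such low levels. The part of such shifts in the results was not tested. The 3 libraries at 20 mM were more alike than those of the other groups and their values carry more decimals, a difference in file preparation that cannot be told apart from the dose. In RNA from bulk cultures, fewer cells that use a gene and less RNA per cell cannot be told apart.

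Across the 48 genes, both directions were seen at both doses. At 10 mM 2-DG, 12 members fell, 3 rose and 33 did not pass the test (limma on log2(FPKM + 1), Benjamini-Hochberg adjusted p under 0.05), so 31.25% were called where 29.7% of all genes tested were called (17.5% lower and 12.1% higher). At 20 mM, 13 fell, 5 rose and 30 did not pass, so 37.5% were called, against 37.0% of all genes tested (21.6% lower and 15.4% higher). The share of members called was therefore near the background at both doses. The median log2 fold change of the members was -0.045 at 10 mM and -0.075 at 20 mM, beside -0.011 and -0.021 over all genes tested. The 2 comparisons share the control libraries, and 11 members fell and 3 rose (POLR1C, NOP10 and DDX10) at both doses. DKC1 fell at 10 mM alone, RRP1B and DDX18 fell and RRP12 and PPAN rose at 20 mM alone, and no difference between the doses passed the test.

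The split between falls and rises depended on how the libraries were scaled. With upper-quartile factors in place of library totals, 6 members fell and 9 rose at 20 mM, and 6 fell and 3 rose at 10 mM. Over all genes tested, 2780 fell and 3277 rose at 20 mM in place of 3582 and 2544. At 10 mM, 2324 of all genes fell and 2481 rose in place of 2903 and 2011. With median-ratio factors the members' counts were 10 and 6 at 20 mM, and 8 and 3 at 10 mM. Over all genes tested they were 3058 and 2923 at 20 mM, and 2484 and 2243 at 10 mM. Without control library 3, 6 members fell at 10 mM, and without 20 mM library 2, 7 members fell at either dose. The falls over all genes were fewer too. They numbered 2354 at 10 mM without control library 3. Without 20 mM library 2 they numbered 2612 at 10 mM and 2874 at 20 mM. The members that rose at 20 mM numbered 3 without 20 mM library 1 or 2, where 1943 and 1904 of all genes rose. Of the 18 members called at 20 mM, 9 were called in all 18 alternatives run: TCOF1, NOP56, NOP58, NOLC1, WDR3 and MRTO4 as lower and POLR1C, NOP10 and DDX10 as higher. At 10 mM, 8 of 15 calls held in the same alternatives: TCOF1, NOP56, NOP58, NOLC1, MRTO4 and GRWD1 as lower and NOP10 and DDX10 as higher. Among the others at 10 mM, UBTF was lost without any 1 library but 10 mM library 3 and 20 mM libraries 1 and 3 (adjusted p up to 0.104), FBL without any but 10 mM library 2 (up to 0.125), RRP1 without any but control and 10 mM libraries 2 (up to 0.144) and NOP14 without any but 10 mM libraries 1 and 3 and 20 mM library 3 (up to 0.116).

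**Figure D1:**
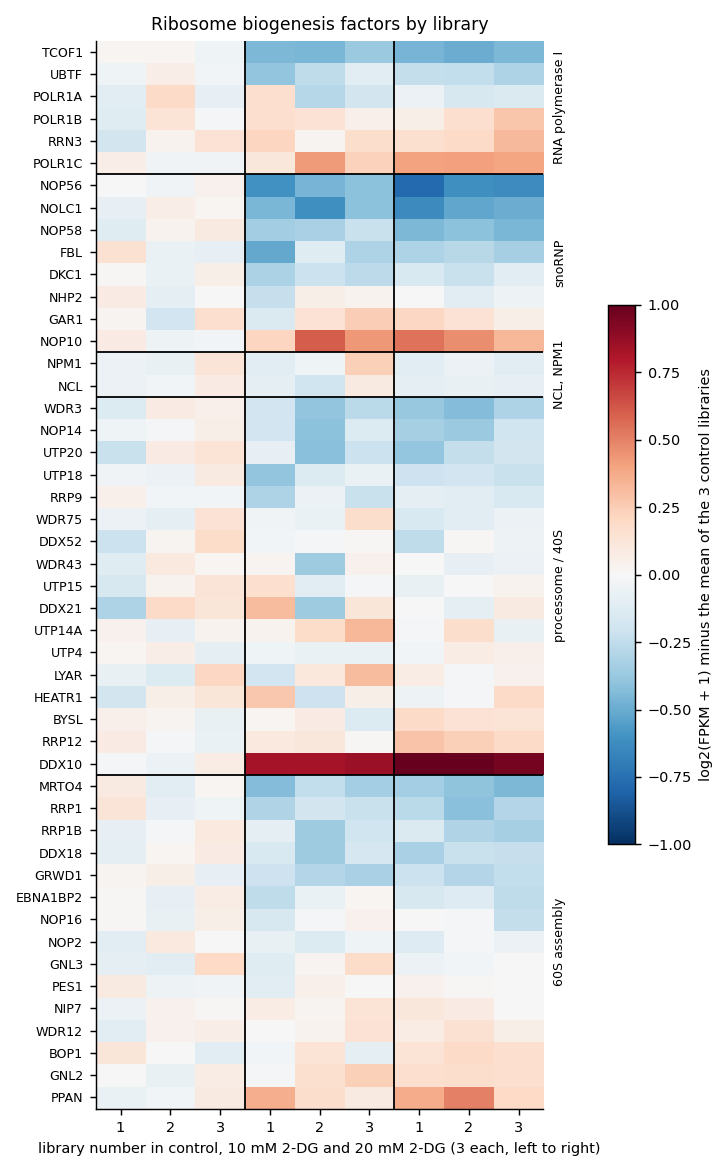
Log2(FPKM + 1) of the 48 ribosome biogenesis factors (rows, by role) in the 9 libraries (columns), minus the mean of the 3 control libraries of the same gene; blue is lower and red is higher than control. DDX10 is the only deep red row (fold changes 0.84 and 1.04), NOP56, NOLC1 and TCOF1 are blue in all 6 libraries with 2-DG, and most other rows are pale.

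The summed level of the members stayed within a narrow range. It lay between 1250.1 and 1407 FPKM per library, which was 0.413% to 0.435% of all FPKM. The summed levels of the control and treated libraries overlapped. NOP10, the member with the highest level, weighs most in these sums, and its mean rose from 235 to 316 and 321 FPKM. The overlap therefore does not show that the other members held their level. As a share of all FPKM, the 3 libraries at 10 mM lay below all control libraries and those at 20 mM overlapped them. On the log2 scale, 47 of 48 fold changes at 10 mM and 45 of 48 at 20 mM were under 0.5 in size, the exceptions being DDX10 at both doses and NOP56 and NOLC1 at 20 mM. The 3 libraries of a group lay wholly below the control libraries for 16 members at 10 mM and 18 at 20 mM, where 22.7% and 29.9% of all genes did so, and wholly above for 3 and 9, where 17.8% and 23.3% did so. By the study's own thresholds (unadjusted p under 0.05 and a change of more than 1 on the log2 scale), 1 member was called: DDX10 at 20 mM, where 0.965% of all genes were called higher and 1.96% lower. At 10 mM no member met them (0.579% of all genes higher and 1.16% lower), while 19 of 48 had an unadjusted p under 0.05, where 40.4% of all genes did. By adjusted p, limma-voom on recovered reads also called 12 members lower and 3 higher at 10 mM, among 5165 of 16572 genes called.

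Levels in the control libraries spanned a wide range around a median of 13.2 FPKM. The highest was NOP10, a small box H/ACA protein, with 235 FPKM, followed by the methyltransferase FBL with 139 FPKM and by NPM1 with 107 FPKM. This order rests on the lengths that the FPKM values imply, which for NPM1 is 2.17 times its GENCODE 29 exon length (3828 bases), for NOP10 0.915 times and for FBL 0.984 times. The lowest was NOP2, an rRNA cytosine methyltransferase, with 0.252 ± 0.0878 FPKM (SD, n = 3). Of the exon bases of NOP2, 2550 (54.4%) are shared on the same strand with the readthrough gene AC006064.6. That gene was listed at 0 FPKM in all libraries. Whether the reads for NOP2 are incomplete was not tested. In GENCODE 29, 26 of the 48 members share exon bases with another gene, 17 of them with a protein-coding one. The implied length equalled the GENCODE 29 exon length for 8 of the 48 members and lay within 10% of it for 39. Another annotation may therefore have been used for counting, and the shared bases need not apply to these counts. Across the 48 members the log2 fold change at 20 mM was only loosely related to level (Pearson r = -0.18, Spearman rho = -0.21, a description over genes of the same libraries).

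The RNA polymerase I group comprised the subunits POLR1A, POLR1B and POLR1C, the initiation factor RRN3 and the nucleolar transcription factors UBTF and TCOF1. TCOF1 and UBTF fell and POLR1C rose at both doses, while POLR1A, POLR1B and RRN3 did not pass the test at either. TCOF1 (chr5:150357629-150400308, treacle, a nucleolar scaffold for rDNA transcription) had 13.5, 13.5 and 12.9 FPKM in the control libraries, 9.47, 9.39 and 10.1 FPKM at 10 mM and 9.34, 9.17 and 9.48 FPKM at 20 mM. Both doses lay wholly below the control and overlapped each other. Its log2 fold change was -0.43 ± 0.06 (SE, adjusted p = 0.000462) at 10 mM and -0.47 ± 0.06 (adjusted p = 0.00018) at 20 mM, a mean level lower by 27.5% and 29.9%.

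UBTF, the upstream binding factor that holds rDNA open, had 16.2, 17.6 and 16.4 FPKM in the control, 12.4, 13.8 and 15.4 FPKM at 10 mM and 14.0, 13.9 and 13.3 FPKM at 20 mM. All treated libraries were below the control, with a wide spread at 10 mM. The log2 fold changes were -0.25 ± 0.08 (adjusted p = 0.0316) and -0.26 ± 0.08 (adjusted p = 0.0217). The call at 20 mM was lost without control library 2 or 20 mM library 2 or 3 (adjusted p up to 0.0769) and with both other scalings, where its adjusted p reached 0.115.

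POLR1C (chr6:43509702-43562419), a subunit shared by RNA polymerases I and III, ran the other way. Its levels were 7.69, 7.11 and 7.12 FPKM in the control, 7.98, 10.1 and 8.76 FPKM at 10 mM and 9.98, 10.0 and 9.92 FPKM at 20 mM. Treated libraries were above all control libraries, narrowly so for the lowest at 10 mM. The log2 fold change was 0.26 ± 0.08 at 10 mM (adjusted p = 0.0403) and 0.40 ± 0.08 at 20 mM (adjusted p = 0.00399). The call at 10 mM was lost in 8 of the 9 fits that left out 1 library (adjusted p up to 0.107, without control library 2), and kept without 10 mM library 1. POLR1C shares 129 exon bases on the opposite strand with YIPF3 (log2 fold change 0.20 at 20 mM, adjusted p = 0.0303) and 348 with XPO5 (0.06), and whether reads were counted by strand is not given in the sources used here.

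POLR1A, the largest subunit, had 5.37, 6.84 and 5.49 FPKM in the control, 6.71, 4.65 and 5.06 FPKM at 10 mM and 5.61, 5.14 and 5.21 FPKM at 20 mM. The groups overlapped, and the 95% interval of its log2 fold change at 20 mM ran from -0.40 to 0.16. POLR1B, the second-largest subunit, had a mean of 3.82 ± 0.436 FPKM in the control and 4.41 ± 0.408 FPKM at 20 mM (log2 fold change 0.17, adjusted p = 0.198). RRN3, which recruits the polymerase to the rDNA promoter, had 5.28 ± 0.723 and 6.30 ± 0.441 FPKM (0.22, adjusted p = 0.107).

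The snoRNP group held the largest share of falls among the roles: 5 of its 8 members fell at 10 mM and 4 of 8 at 20 mM, with 1 rise at each dose and median log2 fold changes of -0.28 and -0.23. Of all genes tested, 17.5% and 21.6% fell. The calls of FBL at both doses and of DKC1 were lost in some alternatives. The falls concerned the box C/D core proteins NOP56, NOP58 and FBL and the assembly factor NOLC1, and at 10 mM also DKC1. The single rise was NOP10. NHP2 and GAR1, the other box H/ACA proteins, did not pass the test.

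NOP56 (chr20:2652145-2658393), a box C/D core protein, had 51.7, 50.4 and 53.2 FPKM in the control, 33.7, 37.2 and 38.6 FPKM at 10 mM and 29.8, 33.6 and 33.2 FPKM at 20 mM. No library overlapped between any 2 of the groups, with the lowest levels at 20 mM. It had the most negative log2 fold change of the 48 members at 20 mM, -0.67 ± 0.07 (adjusted p = 5.48e-05), after -0.49 ± 0.07 (adjusted p = 0.000529) at 10 mM. The step from 10 to 20 mM was -0.18 ± 0.07 and did not pass (adjusted p = 0.650, limma).

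Its partner NOP58 (chr2:202265716-202303666) had 12.5, 14.1 and 14.7 FPKM in the control, 10.6, 10.8 and 11.7 FPKM at 10 mM and 9.80, 10.1 and 9.74 FPKM at 20 mM. These groups too did not overlap. Its log2 fold changes were -0.30 ± 0.07 (adjusted p = 0.0109) and -0.44 ± 0.07 (adjusted p = 0.00102). FBL, the methyltransferase of the same particle, had 153, 132 and 130.1 FPKM in the control, 96.6, 127 and 111 FPKM at 10 mM and 111, 114 and 109.8 FPKM at 20 mM. All treated libraries were below the control, the nearest by a small margin at 10 mM. FBL fell by 0.31 and 0.30 on the log2 scale (adjusted p = 0.0380 and 0.0352), and its call at 20 mM was lost without control library 1 or 2 or any 20 mM library (adjusted p up to 0.118) and with both other scalings (up to 0.162).

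NOLC1 (chr10:102152176-102163871), the Nopp140 chaperone of snoRNPs, had 52.1, 57.8 and 56.1 FPKM in the control, 40.1, 35.8 and 41.3 FPKM at 10 mM and 35.3, 38.3 and 38.9 FPKM at 20 mM. Treated libraries were all lower than control and the doses overlapped. The log2 fold changes were -0.49 ± 0.07 (adjusted p = 0.000671) and -0.55 ± 0.07 (adjusted p = 0.000245). DKC1, the pseudouridine synthase of box H/ACA particles, had means of 9.16 ± 0.451 FPKM in the control, 7.46 ± 0.306 FPKM at 10 mM and 8.07 ± 0.362 FPKM at 20 mM. It fell at 10 mM (-0.26, adjusted p = 0.0146) and did not pass at 20 mM (-0.16, adjusted p = 0.0808). The call at 10 mM was lost without control library 3 (adjusted p = 0.0509) and with upper-quartile factors (0.0531). Between the doses its log2 fold change was 0.10 with a 95% interval from -0.05 to 0.25.

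NOP10 (chr15:34341713-34343177), which binds DKC1 in the same particle, had 248.8, 226 and 230.2 FPKM in the control, 272, 358 and 318 FPKM at 10 mM and 343, 325 and 297 FPKM at 20 mM. Each treated library was above each control library, with the widest spread at 10 mM. Its log2 fold change was 0.42 ± 0.10 (adjusted p = 0.0124) and 0.45 ± 0.10 (adjusted p = 0.00680), a mean level higher by 34.4% and 36.7%. DKC1 and NOP10 are subunits of 1 particle with unlike values, -0.26 and 0.42 at 10 mM. NHP2 (-0.06, 95% interval -0.24 to 0.13 at 20 mM) and GAR1 (0.13, -0.12 to 0.39) had overlapping libraries.

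NOP10 and FBL are shown with the bases before their start sites because they had the highest FPKM of the members, by the lengths the values imply, and moved in opposite directions. The sequences are those before the GENCODE 29 gene on the strand of the gene, from the RefSeq promoter table (GRCh38.p14): chr15:34343178-34343386 on the minus strand for NOP10, and chr19:39846415-39846629 on the minus strand for FBL. Capitals mark CACGTG (the E-box) in NOP10 and CCGGAAG (an ETS-type motif) in FBL.
NOP10: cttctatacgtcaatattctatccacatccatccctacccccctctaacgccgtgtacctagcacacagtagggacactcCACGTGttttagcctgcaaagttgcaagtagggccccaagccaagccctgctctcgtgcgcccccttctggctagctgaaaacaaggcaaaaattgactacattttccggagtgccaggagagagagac
FBL: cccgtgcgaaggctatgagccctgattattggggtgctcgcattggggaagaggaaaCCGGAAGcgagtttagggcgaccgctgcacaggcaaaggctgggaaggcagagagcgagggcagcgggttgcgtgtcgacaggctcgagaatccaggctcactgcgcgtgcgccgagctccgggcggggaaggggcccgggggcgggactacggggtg
NOP10 held 2 copies of CACGTG in its whole window, 170 and 11 bases before the start site, and 1 of CCGGAAG 42 bases before it. FBL held its CCGGAAG 193 bases before the start site and a CACGTG that starts at base 7, counting the start site as base 1.

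The nucleolar proteins NCL and NPM1 did not pass the test at either dose. NPM1, a histone and ribosomal protein chaperone, had 102, 101 and 117 FPKM in the control, 98.2, 104 and 126 FPKM at 10 mM and 98.6, 102 and 99.0 FPKM at 20 mM. NCL, a pre-rRNA binding protein, had 83.1, 85.0 and 91.3 FPKM in the control, 81.2, 75.2 and 91.9 FPKM at 10 mM and 81.1, 81.9 and 81.7 FPKM at 20 mM. NPM1 libraries overlapped, while NCL at 20 mM lay just below the lowest control library. The 95% intervals at 20 mM were -0.30 to 0.12 for NPM1 and -0.25 to 0.08 for NCL, around -0.09 and -0.08, and both signs turned with upper-quartile factors. NPM1 shares sequence with 49 listed pseudogenes that together held 29.2 to 52.0 FPKM, so its own level is uncertain.

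Of the 17 processome and 40S factors, 2 fell and 1 rose at 10 mM and 2 fell and 2 rose at 20 mM. At either dose 11.8% fell, beside 17.5% and 21.6% of all genes tested. Rises made 5.9% and 11.8%, beside 12.1% and 15.4%. The falls were WDR3 and NOP14 at both doses, and the rises were DDX10 at both doses and RRP12 at 20 mM. The group's median log2 fold change was -0.01 at either dose, and 13 of its members did not pass at 20 mM, with values from -0.27 to 0.16.

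DDX10 (chr11:108665025-108940930), the human counterpart of a yeast DEAD-box helicase that releases a snoRNA from the pre-rRNA, changed more than any other member. Its levels were 4.37, 4.19 and 4.70 FPKM in the control, 8.62, 8.66 and 8.85 FPKM at 10 mM and 10.7, 10.1 and 9.53 FPKM at 20 mM. No 2 groups overlapped, and the libraries within each group were close together. The mean level was 1.97 times that of the control at 10 mM and 2.29 times at 20 mM, with log2 fold changes of 0.84 ± 0.07 (adjusted p = 2.39e-05) and 1.04 ± 0.07 (adjusted p = 3.75e-06). Among all 16572 genes tested it ranked 168th from the most raised at 10 mM. The step from 10 to 20 mM was 0.19 ± 0.07 (adjusted p = 0.575), and without 20 mM library 1 the change at 20 mM was just under the study's threshold, at 0.997. At least 2774 reads lay on DDX10 in each library. The length that its FPKM values imply, 18059 bases, is longer than its GENCODE 29 exons (8653 bases), so the level per length depends on the annotation used, and through the added 1 so does the log2 fold change to a lesser degree (0.96 at 10 mM with a pseudocount of 0.1).

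The bases before DDX10 are shown because it carries the largest change and a repeated motif. The stretch is chr11:108664819-108665024 on the plus strand (RefSeq promoter table, GRCh38.p14), ending where the GENCODE 29 gene begins, and capitals mark TGACGTCA, a palindrome known as the cyclic AMP response element, which was searched for only after this sequence had been seen.
DDX10: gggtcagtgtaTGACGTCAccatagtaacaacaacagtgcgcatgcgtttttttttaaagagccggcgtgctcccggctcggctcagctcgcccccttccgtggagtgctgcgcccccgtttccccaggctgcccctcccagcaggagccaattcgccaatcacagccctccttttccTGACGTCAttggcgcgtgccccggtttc
The copies start 239 and 72 bases before the RefSeq start site. Promoter windows with 2 or more copies were found for 0.0732% of all 27305 genes of the table and for 0.124% of the 11335 tested genes in it. A match describes letters in a window and is not a measured binding site.

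WDR3 (chr1:117929720-117966542), a beta-propeller subunit of the processome, had 3.93, 4.73 and 4.62 FPKM in the control, 3.74, 3.11 and 3.49 FPKM at 10 mM and 3.16, 3.01 and 3.36 FPKM at 20 mM. All treated libraries were below the control, and 10 mM library 1 came closest to it. Its log2 fold changes were -0.29 ± 0.09 (adjusted p = 0.0424) and -0.37 ± 0.09 (adjusted p = 0.0105). At 10 mM the call was lost without 7 of the 9 libraries (adjusted p up to 0.132), all but control library 1 and 10 mM library 1. It was also lost there with upper-quartile factors. NOP14, which joins the same early particle, had 31.6, 32.4 and 34.0 FPKM in the control, 28.4, 24.3 and 29.5 FPKM at 10 mM and 25.7, 25.0 and 28.3 FPKM at 20 mM. It too was lower in every treated library (-0.25, adjusted p = 0.0397, and -0.30, adjusted p = 0.0137). The call at 20 mM was lost without 20 mM library 1 or 2 (adjusted p up to 0.0584) and with upper-quartile factors. NOP14 shares 605 exon bases (17.1%) on the opposite strand with NOP14-AS1. UTP20, a large scaffold of the processome, had 4.17, 5.41 and 5.65 FPKM in the control, 4.71, 3.52 and 4.20 FPKM at 10 mM and 3.62, 4.13 and 4.31 FPKM at 20 mM. Its control library 1 lay among the treated ones, and the change of -0.27 at 20 mM did not pass (adjusted p = 0.113).

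RRP12, which aids nuclear export of both subunits, had 12.6, 11.7 and 11.2 FPKM in the control, 12.7, 12.9 and 11.9 FPKM at 10 mM and 14.6, 14.1 and 13.6 FPKM at 20 mM. The 20 mM libraries were above all others, while the 10 mM libraries overlapped the control. The log2 fold change was 0.07 ± 0.06 (adjusted p = 0.419) at 10 mM and 0.24 ± 0.06 (adjusted p = 0.0151) at 20 mM, where the call was lost without control library 3 or 20 mM library 1 or 2 (adjusted p up to 0.0652). BYSL, the bystin protein of the pre-40S particle, had 64.9, 63.6 and 59.3 FPKM in the control, 63.3, 66.1 and 56.8 FPKM at 10 mM and 71.8, 69.3 and 68.7 FPKM at 20 mM. It too was highest in the 20 mM libraries, but 0.16 at 20 mM did not pass (adjusted p = 0.0883).

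The other processome and 40S members did not pass at either dose. UTP18 and RRP9, the latter a protein of the U3 snoRNP, lay below control in every treated library, with log2 fold changes of -0.21 and -0.12 at 20 mM (adjusted p = 0.0802 and 0.191). Libraries overlapped at both doses for UTP4, UTP14A, UTP15, WDR43, WDR75, HEATR1, LYAR and the helicases DDX21 and DDX52, whose log2 fold changes at 20 mM lay between -0.11 and 0.04. DDX21 had the widest error of the members (SE 0.17), with 13.2 to 19.1 FPKM in the control and 12.7 to 20.9 FPKM at 10 mM. HEATR1 shares 2095 exon bases (23.2%) with LGALS8 on the opposite strand, which rose (0.27 at 20 mM, adjusted p = 0.0365).

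**Figure D2:**
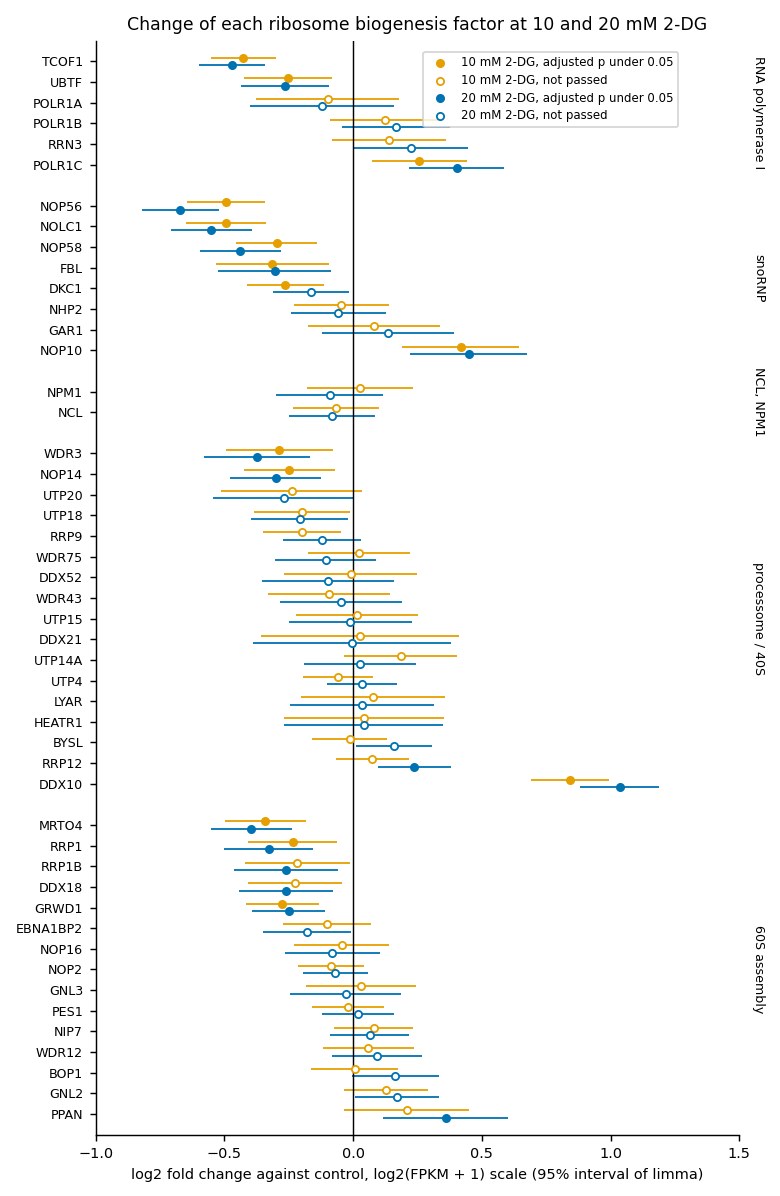
Log2 fold change of each of the 48 ribosome biogenesis factors against control at 10 mM (orange) and 20 mM (blue) 2-DG on the log2(FPKM + 1) scale, with 95% intervals; filled points have an adjusted p under 0.05. The filled points lie mostly between -0.67 and -0.24 on the left. Filled points of POLR1C, NOP10, RRP12 and PPAN lie on the right between 0.24 and 0.45, and DDX10 lies farthest right at 0.84 and 1.04.

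The 60S factors numbered 15 and held 3 falls at 10 mM, and 5 falls and 1 rise at 20 mM. Falls made 20.0% and 33.3%, beside 17.5% and 21.6% of all genes tested. The rise at 20 mM made 6.7%, beside 15.4%. MRTO4, GRWD1 and RRP1 fell at both doses, RRP1B and DDX18 fell at 20 mM, and PPAN rose at 20 mM. MRTO4 (chr1:19251539-19260128), which holds the place of the ribosomal stalk on pre-60S particles, had 35.7, 31.1 and 34.0 FPKM in the control, 24.5, 28.1 and 26.3 FPKM at 10 mM and 26.3, 25.2 and 24.4 FPKM at 20 mM. Both doses were clear of the control. The log2 fold changes were -0.34 ± 0.07 (adjusted p = 0.00539) and -0.40 ± 0.07 (adjusted p = 0.00179).

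RRP1 and its paralog RRP1B act in early 60S processing. RRP1 had 11.3, 9.63 and 9.91 FPKM in the control, 8.14, 8.92 and 8.65 FPKM at 10 mM and 8.35, 7.42 and 8.18 FPKM at 20 mM. RRP1B had 6.81, 7.18 and 7.85 FPKM in the control, 6.76, 5.47 and 6.19 FPKM at 10 mM and 6.46, 5.71 and 5.57 FPKM at 20 mM. All treated libraries of both genes were below control, for RRP1B narrowly at 10 mM. RRP1 fell by 0.33 on the log2 scale at 20 mM (adjusted p = 0.00828, lost with upper-quartile factors at 0.0516). RRP1B fell by 0.26 (adjusted p = 0.0472). The RRP1B call was lost without any control library, 10 mM library 3 or 20 mM library 2 or 3 (up to 0.148). It was also lost with both other scalings. GRWD1, a chaperone of ribosomal protein L3, went from 12.8 ± 0.701 FPKM to 10.4 ± 0.495 and 10.6 ± 0.317 FPKM (-0.27 and -0.25, adjusted p = 0.0102 and 0.0123). Its call at 20 mM was lost without 20 mM library 2 (adjusted p = 0.0550) and with upper-quartile factors (0.0847). The helicase DDX18 went from 8.07 ± 0.578 FPKM to 6.56 ± 0.288 FPKM at 20 mM (-0.26, adjusted p = 0.0302). The DDX18 call was lost without control library 2 or 3 or any 20 mM library (up to 0.107) and with upper-quartile factors.

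PPAN, the human counterpart of the peter pan protein needed for the large subunit, had 2.58, 2.67 and 3.00 FPKM in the control, 3.81, 3.24 and 2.98 FPKM at 10 mM and 3.86, 4.33 and 3.30 FPKM at 20 mM. The 20 mM libraries lay above the control and the 10 mM libraries overlapped it. Its log2 fold change was 0.21 ± 0.11 (adjusted p = 0.182) and 0.36 ± 0.11 (adjusted p = 0.0265), the latter lost without control library 1 or 2 or 20 mM library 1 or 2 (adjusted p up to 0.106). Of its exon bases, 1447 (56.0%) are shared with the readthrough gene PPAN-P2RY11, listed at or near 0 FPKM, and 97 with the downstream gene P2RY11. P2RY11 rose by 0.65 and 0.82 on the log2 scale, from 4.43, 4.35 and 4.11 FPKM to 8.31, 8.14 and 8.52 FPKM at 20 mM, and its part in the value of PPAN was not tested.

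The remaining 60S members did not pass: the PeBoW complex proteins PES1, BOP1 and WDR12 (log2 fold changes 0.02, 0.16 and 0.09 at 20 mM), the nucleolar GTPases GNL2 and GNL3 (0.17 and -0.03), and NIP7, NOP16, NOP2 and EBNA1BP2 (0.06, -0.08, -0.07 and -0.18). GNL2 and BOP1 lay above and EBNA1BP2 below control in all 3 libraries at 20 mM, with adjusted p values of 0.0977, 0.121 and 0.0945. For PES1 the 95% interval at 20 mM ran from -0.12 to 0.16.

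**Figure D3:**
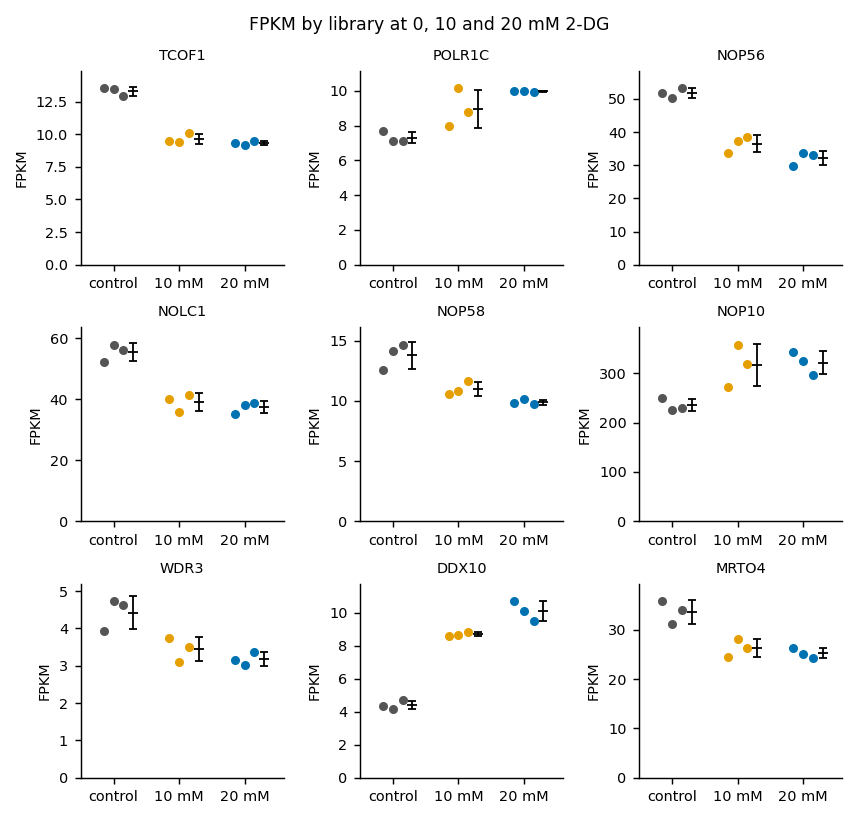
FPKM in each library (points) with mean and SD of 3 libraries (black bar) in control, 10 mM and 20 mM 2-DG for the 9 members called at 20 mM in all 18 alternatives; the vertical axes start at 0. TCOF1, NOP56, NOLC1, NOP58, WDR3 and MRTO4 step down from control, and POLR1C, NOP10 and DDX10 step up.

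Between 20 and 10 mM 2-DG, limma called 0 of 48 members (0.0% of all genes tested were called), limma-voom on recovered reads also called 0, and 4 members had an unadjusted p under 0.05 where 6.87% of all genes did. These were DDX10 (0.19), BYSL (0.17) and RRP12 (0.16) as higher and NOP56 (-0.18) as lower at 20 mM, with adjusted p values between 0.575 and 0.652. The 20 mM libraries were wholly above the 10 mM libraries for 4 members and wholly below for 2, against 4.71% and 7.14% of all genes. No member met the study's thresholds between the doses, where 0.00603% of all genes were higher and 0.0% lower. Among the 48 members the difference between the doses lay between -0.18 and 0.19.

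A further 124 genes of the same pathway, written as a list by role with earlier results of these data known, were read in the same fit. At 10 mM 26 fell and 9 rose, and at 20 mM 31 fell and 12 rose, which is 28.2% and 34.7% called beside 29.7% and 37.0% of all genes. Leaving out control library 1 or 2 or 10 mM library 3 lowered the rises at 10 mM to 5, 4 and 5, and leaving out 20 mM library 3 lowered those at 20 mM to 7. Over all genes tested these rises numbered 1505, 1583 and 1611 in place of 2011, and 2022 in place of 2544. The median log2 fold change was -0.085 at 10 mM and -0.073 at 20 mM, beside -0.045 and -0.075 for the 48 members.

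Among the other RNA polymerase I genes, 3 of 10 (30.0%) fell at 20 mM, where 21.6% of all genes tested fell. POLR1F, a stalk subunit, went from 5.72 ± 1.05 to 3.37 ± 0.449 FPKM (-0.61, adjusted p = 0.00464) and POLR1G, a subunit of the polymerase's initiation module, from 1.79 ± 0.0694 to 1.26 ± 0.163 FPKM (-0.31, adjusted p = 0.0353). The call of POLR1G was lost without any 1 of the control or 20 mM libraries and in 10 of 18 alternatives in all (adjusted p up to 0.129). Among the other snoRNP genes, 3 of 10 (30.0%) fell at 20 mM, all of them R2TP assembly machinery. The ATPase RUVBL1 went from 14.1 ± 0.540 to 8.81 ± 0.428 FPKM (-0.63, adjusted p = 5.76e-05) and its partner RUVBL2 from 92.3 ± 9.73 to 61.4 ± 1.09 FPKM (-0.57, adjusted p = 0.000352), while PIH1D1 fell by 0.53.

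Of 43 other processome and 40S genes, 10 (23.3%) fell and 4 (9.3%) rose at 20 mM, beside 21.6% and 15.4% of all genes tested. RRP7A, a processome protein, went from 14.8 ± 0.466 to 10.6 ± 0.05 FPKM (-0.45, adjusted p = 0.000217), and MPHOSPH10, a U3 snoRNP partner, from 3.39 ± 0.876 to 2.19 ± 0.362 FPKM (-0.45, adjusted p = 0.0435). The call of MPHOSPH10 was lost without control library 2 or 3 or any 20 mM library and in 10 of 18 alternatives in all (adjusted p up to 0.148). NOB1, the nuclease that makes the 18S end, rose from 21.6 ± 2.36 to 29.4 ± 1.12 FPKM (0.43, adjusted p = 0.00167). Of 46 other 60S genes, 12 (26.1%) fell and 7 (15.2%) rose. BRIX1, needed for pre-60S assembly, went from 8.50 ± 1.58 to 4.78 ± 0.15 FPKM (-0.70, adjusted p = 0.00301), the GTPase GTPBP4 from 20.3 ± 0.728 to 14.3 ± 0.320 FPKM (-0.48, adjusted p = 0.000145), and NOP53, which brings the exosome to the pre-60S particle, rose from 19.7 ± 1.95 to 28.0 ± 0.565 FPKM (0.49, adjusted p = 0.00416). Among 15 rRNA nucleases, 3 (20.0%) fell and 1 (6.7%) rose. The exosome subunit EXOSC9 went from 8.91 ± 0.837 to 3.54 ± 0.18 FPKM (-1.12, adjusted p = 1.32e-05), EXOSC2 fell by 0.55 and EXOSC6 rose by 0.31.

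Ribosomal proteins are the parts that these factors assemble. Of 81 ribosomal protein genes, 2 rose and 2 fell at 10 mM, and 6 rose and 4 fell at 20 mM, with medians of 0.09 and 0.12 on the log2 scale. That is 4.94% and 12.3% called, beside 29.7% and 37.0% of all genes. The log2 fold change was positive for 64 of the 81 at 10 mM and for 69 at 20 mM. Treated libraries lay wholly above the control for 4 and 30 of them, where 17.8% and 23.3% of all genes did so. They lay wholly below it for 3 and 5, where 22.7% and 29.9% did so. MYC rose at both doses, with 40.4, 42.8 and 39.7 FPKM in the control, 52.6, 51.7 and 49.1 FPKM at 10 mM and 59.2, 57.2 and 56.9 FPKM at 20 mM. The 3 groups did not overlap, and the log2 fold changes were 0.31 (adjusted p = 0.00182) and 0.49 (adjusted p = 8.88e-05).

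**Figure D4:**
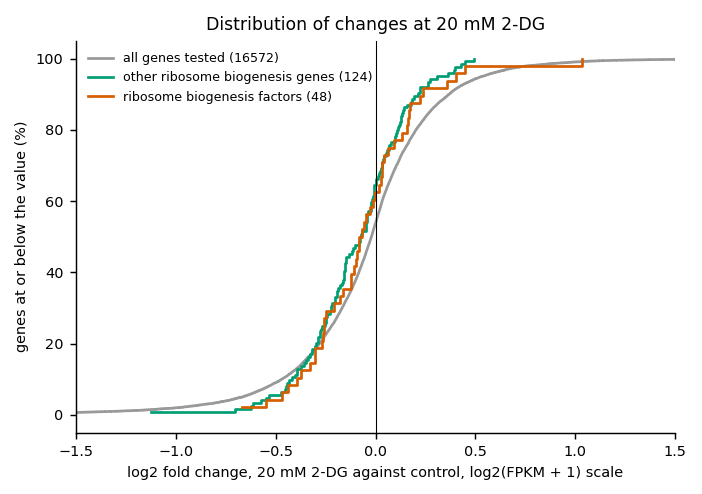
Cumulative share of genes (vertical axis, %) by log2 fold change at 20 mM 2-DG against control (horizontal axis) for the 16572 genes tested, the 124 other ribosome biogenesis genes and the 48 ribosome biogenesis factors. The 2 lists run close together, slightly left of all genes in the middle (medians -0.021 for all genes, -0.073 and -0.075), and the factors have shorter tails apart from DDX10.

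A feature that the choice of genes did not use is the sequence near their start sites. The RefSeq promoter table (GRCh38.p14, 250 bases before to 50 after a start site, with 1.25 windows per member on average) held 40 of the 48 members; RRP12, BOP1, NOP58, NOLC1, TCOF1, RRP1B, DDX18 and DDX52 were not matched. CACGTG, the E-box that MYC and related factors recognise, was present on either strand in a window of 19 of the 40 (47.5%), compared with 8.77% of 27305 genes and 12.2% of the 11335 tested genes in the table. CCGGAAG was present in 16 of 40, compared with 12.2% and 21.4%, and the palindromic NRF1-type motif in 3 of 40 (7.5%) compared with 1.52% and 2.58%. TGACGTCA was searched for only after the DDX10 sequence had been seen. It was present in 2 of 40, DDX10 itself and RRP1, compared with 2.25% and 3.63%. No motif contains another, and CACGTG, the NRF1-type motif and TGACGTCA read the same on both strands. The E-box was found in 3 of 8 members that fell at 20 mM, 1 of 4 that rose and 15 of 28 that did not pass.

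Several members hold genes of other RNAs within their bounds. GENCODE 29 places 26 small nucleolar or Cajal body RNA genes inside 8 members: 6 in GNL3, 5 in NOP56, 4 in NOP58, 3 each in NCL and WDR43, 2 each in DKC1 and PPAN and 1 in POLR1C. These RNAs were listed at up to 4.19 FPKM in GNL3, 1.80 FPKM in NOP58 and 0.742 FPKM in NOP56. The libraries were made with an mRNA kit, and how well it captures such short RNAs was not tested. The hosts NOP56 and NOP58 fell, PPAN and POLR1C rose at 20 mM, DKC1 fell at 10 mM and did not pass at 20 mM, and GNL3, NCL and WDR43 did not pass at either dose.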

How the data were processed

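RNA was extracted with an RNeasy kit and libraries were made with a SMARTER mRNA kit, 3 per group; the labels do not say whether they came from separate cultures, so p-values measure the spread between these samples, which may be technical. The authors deposited FPKM values, 1 file per library. The submitters' processing notes name GRCh38/hg38; the aligner, counter, annotation and use of strand are not given in the sources used here. FPKM was read as the unit from the values. Whole reads were recovered for 32806 of 32806 genes above 0, and served for the filter (3 or more libraries with 10 reads, scaled to the median depth, and 15 or more reads in total) and for limma-voom.

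Log2(FPKM + 1) was tested with limma 3.58.1 in R 4.3.3 (eBayes with trend, all 9 libraries in 1 fit, no replicate block, Benjamini-Hochberg over 16572 genes). Fold changes on this scale understate changes of low genes. Replicates of a group correlated at 0.989 to 0.996, and no 2 libraries agreed within sampling noise. The steps were tested on simulated data. Alternatives were the pseudocount (0.1), 2 filters, 2 scalings, no trend, only the 2 groups compared, a replicate block, limma-voom and leaving out each library.

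Members and lists were chosen with earlier results of these data known. Values of every library are given, per role, for the 3 members with the most negative and the 1 with the most positive log2 fold change at 20 mM (both members of the pair NCL and NPM1), for members called against the members' median, and for the 3 with the smallest p between doses; of the other pathway genes, 2 lowest and 1 highest called per role are named, and MYC. Other members, and PIH1D1 after its values were seen, were named from the same tables, and P2RY11, YIPF3, XPO5, LGALS8, AC006064.6, NOP14-AS1 and PPAN-P2RY11 for shared exon bases in GENCODE 29.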

Additional observations from a re-analysis of the deposited data

How the results depend on the processing

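Directions held in all alternatives for the members called. Calls were lost where libraries were left out or rescaled, and also with another filter or model. At 10 mM the main fit called 15 members. Keeping all genes above 0 gave 9, comparing only the 2 groups gave 9 and the replicate block gave 10. Upper-quartile factors gave 9 and median-ratio factors 11. With all genes above 0 in any library kept, 7 members fell at 10 mM and 5 other pathway genes rose. Of 32806 genes in that fit, 2213 fell and 1412 rose. With only the 2 groups compared, 7 members fell and 3 other pathway genes rose at 10 mM, where 2250 of all genes fell and 1541 rose. At 20 mM the shift was the opposite. There, 22 members were called in place of 18, and 6741 of all genes in place of 6126. With median-ratio factors the members' median log2 fold changes were -0.00842 at 10 mM and -0.0279 at 20 mM. With upper-quartile factors they were 0.017 and 0.011, 6 members fell at 10 mM, 6 fell and 9 rose at 20 mM, 17 other pathway genes fell at 20 mM, and NCL (0.013) and NPM1 (0.00333) turned positive at 20 mM. The median over all genes tested moved from -0.011 to 0.017 at 10 mM and from -0.021 to 0.021 at 20 mM with upper-quartile factors. With median-ratio factors it was 0.0063 at 10 mM and 0.0031 at 20 mM. The causes were not tested.

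Leaving out 1 library gave member medians from -0.080 to -0.032 (10 mM), -0.11 to -0.036 (20 mM) and -0.026 to 0.016 (between doses). Members called lower numbered 6 to 10 and 7 to 15, members called higher 2 to 4 and 3 to 6, other pathway genes called lower 19 to 25 and 21 to 37, and called higher 4 to 7 and 7 to 12, at 10 and 20 mM. Of all genes tested, 2343 to 2843 and 2752 to 3803 were called lower at 10 and 20 mM. Those called higher numbered 1505 to 2043 and 1904 to 2799. With all libraries kept, 2903 and 3582 were lower, and 2011 and 2544 higher. By the study's thresholds 0 to 1 member was called higher at 20 mM.

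Replicate numbers are shared across groups. Deviations from the group mean correlated at -0.41 to 0.29 between same-numbered libraries and at -0.23 to 0.52 between differently numbered ones. With 3 libraries per group these values cannot show whether libraries of different groups were paired, under the same or other numbers. With the replicate block, 8 members fell and 2 rose at 10 mM, and 10 fell and 5 rose at 20 mM. Of all genes tested, 2552 fell and 1754 rose at 10 mM, and 3270 fell and 2276 rose at 20 mM. FBL, POLR1C, RRP1, UBTF and WDR3 lost their calls at 10 mM and DDX18, FBL and RRP1B at 20 mM.

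NOP2, at 0.252 FPKM in the control, is the member whose depth limits its value most.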
